A study of Rattus norvegicus with 18 samples.

Results

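The effect of MYC was examined in 6 of the 18 RNA-seq libraries of a study of rat fibroblasts, 3 from cells labelled myc-/- + MYC and 3 from cells labelled myc-/- siCtrl. These libraries were chosen because the deposited values of the 6 had been normalized together, and the values of the other 12 libraries were not used here. All cells were of HO15.19, a Rat1 fibroblast line in which endogenous Myc is disrupted, and the labels give medium with 10% serum, a percentage that differs from the one in the study's methods. The myc-/- + MYC cells were a stable line made by viral infection that expresses human MYC from the retroviral vector pBabe, and are listed as untransfected. The myc-/- siCtrl cells, called control here, carry a label of 40 nM control siRNA for 48 h, whereas the study's methods describe the cells without MYC as carrying empty vector. As labelled, MYC and transfection change together in these 6 libraries, and each side is a single line, so that MYC, transfection and other differences between the lines cannot be told apart. Values are the log2 expression values that the authors deposited for 13188 genes. Their read depth is unknown. An error after ± is the SD between the 3 libraries of a group. SE is the standard error of the difference between the groups, from the fit described below.

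MYC is a basic helix-loop-helix leucine zipper factor that pairs with MAX and binds E-boxes near gene starts. It is best known for raising the genes that make ribosomes, nucleotides and other materials for growth, and with MIZ1 or other partners it can lower genes such as CDK inhibitors. In fibroblasts, its oncogenic activity is also known to go with loss of matrix and contractile gene expression.

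The comparison asks which genes change when MYC is returned to cells that lack it, and it was fitted for all 13188 genes with limma, with p-values adjusted over all of them by the Benjamini-Hochberg method. A gene was called when it changed at least 1.5-fold (a log2 fold change, log2FC, of at least 0.585 in size, always MYC minus control) with an adjusted p of at most 0.01. Folds are those of the deposited values, whose transformation is not known, and whether it makes changes of genes with low values smaller was not tested. A total of 1653 genes, 12.5% of those tested, rose with MYC, and 1885 genes, 14.3%, fell, so that 26.8% were called in either direction. After quantile normalization the balance turned, with 1799 genes higher and 1684 lower. The median log2FC of all genes was -0.0038. At least 2-fold rises were found in 645 genes and falls in 926, and changes of at least 8-fold in 47 and 95. The libraries separated by group: the median difference between libraries of a group was 0.0347 to 0.0645 on the log2 scale, while libraries of different groups differed by 0.289 to 0.302, and the leading principal component held 98.1% of the variance. The deleted gene itself, still listed as Myc, had values of 9.47, 9.29 and 9.16 in the 3 control libraries and 8.05, 8.08 and 8.01 in the 3 MYC libraries, lower in all 3 MYC libraries than in any control library (log2FC -1.26, SE 0.078, adjusted p = 4.21e-08). Transcripts of the introduced human gene were not analysed.

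**Figure D1:**
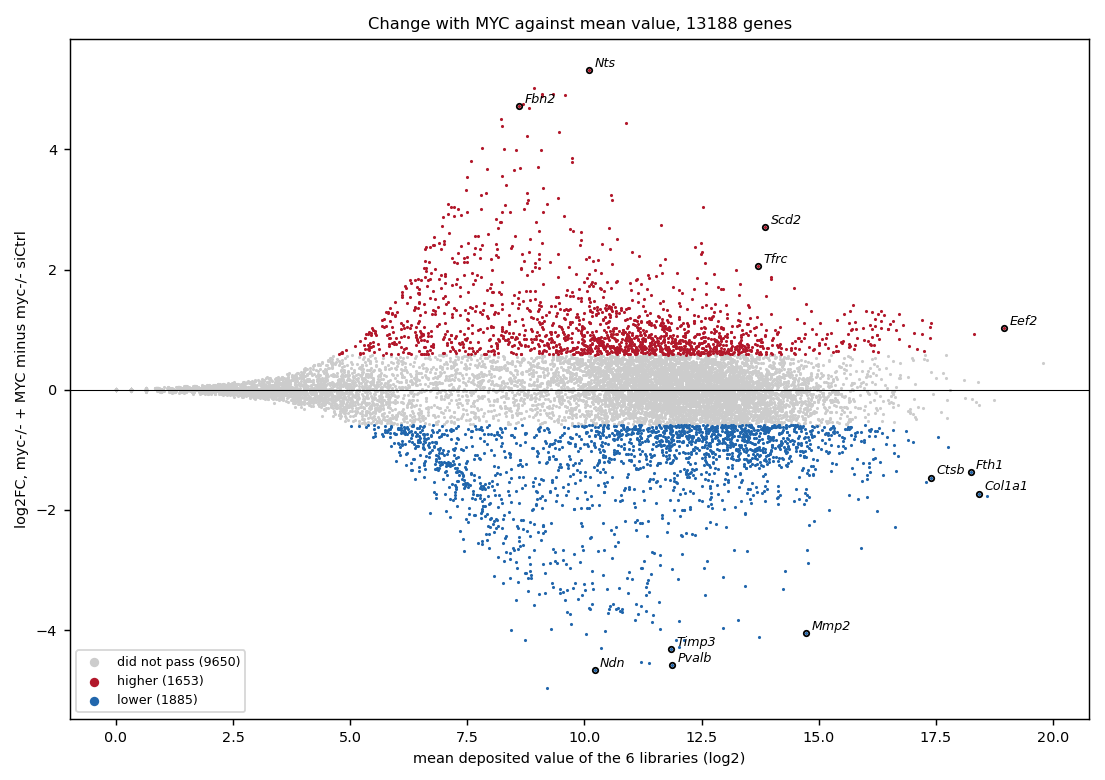
Log2FC of each of the 13188 genes (vertical axis) against its mean deposited log2 value over the 6 libraries (horizontal axis), with 1653 higher genes in red, 1885 lower genes in blue and 9650 that did not pass in grey. The labelled genes include Scd2 and Tfrc among the highly expressed genes that rose and Mmp2 and Col1a1 among those that fell.

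Calls were unevenly spread over expression levels. When genes were ordered by their mean value and divided into 4 equal parts, 9.28% of the most highly expressed part rose and 19.3% fell, whereas in the part just below the median the shares were 23.5% and 20.7%. Of the lowest part, with means up to 6.75, 4.97% rose and 3.94% fell, and the median size of change there was 0.0716. With the values as deposited, the most highly expressed genes that changed fell more often than they rose. In the plot of change against level the points fan out from a mean of about 5 upwards.

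To describe programmes, 2139 genes of the table were placed in 63 lists by their known roles. They contain 738 called genes. The lists were drawn up with earlier results of these data known, so that their counts describe these libraries. Each count is to be read against the shares of all genes, 12.5% higher and 14.3% lower, which are repeated beside some lists only. The groups did not overlap in 78.8% of all genes, the share against which remarks on overlap are to be read. Numbers in brackets after a gene, and those given for genes that did not pass, are log2FC.

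**Figure D2:**
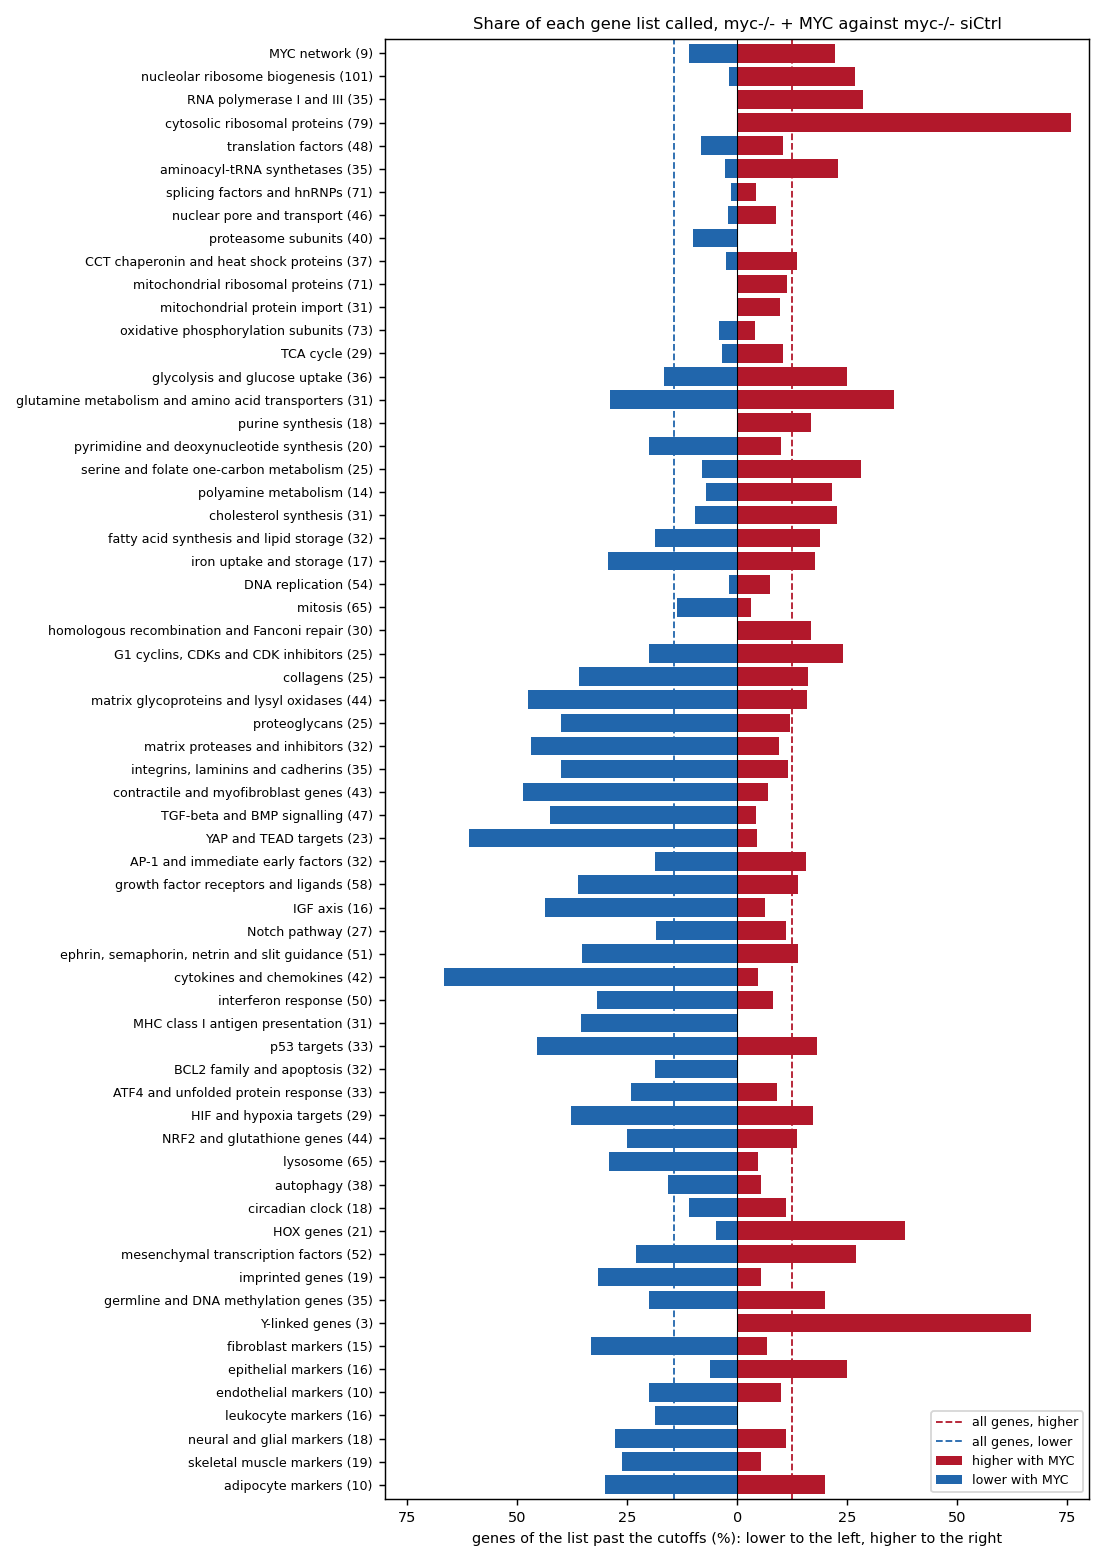
Percentage of each gene list that rose (red, to the right) or fell (blue, to the left) with MYC, with the number of measured members in brackets and dashed lines at the shares of all 13188 genes (12.5% higher and 14.3% lower). The list of cytosolic ribosomal proteins reaches farthest to the right, and lists of matrix, contractile, cytokine and YAP target genes far to the left.

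Of the 63 lists, that of cytosolic ribosomal proteins was the only one in which every member was separated between the groups in 1 direction. Of 79 cytosolic ribosomal protein genes, 60 rose and 0 fell, and in all 79 the MYC libraries lay above the control libraries without overlap. Groups separated in this direction for 37.9% of all genes. The median log2FC of the list was 0.85, from 0.21 to 1.41. Rpl3, a protein of the peptidyl transferase region of the large subunit, had values of 16.83, 16.84 and 16.85 in the 3 control libraries and 17.99, 17.93 and 17.90 in the 3 MYC libraries. Its groups stood more than 1 unit apart (log2FC 1.11, SE 0.031, adjusted p = 5.69e-11). Rps6, the small subunit protein phosphorylated by S6 kinase, rose by 1.00, and Rplp0 of the ribosomal stalk by 0.93, from an already high control mean of 17.85 ± 0.053 (SD, n = 3). The members that rose most were Rps26 (1.41), Rpl37 (1.31) and Rpl32 (1.29). Ribosomal protein genes have many processed copies in the genome, and how reads shared with those copies were counted is not given in the sources used here, so the values of single members are uncertain.

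Upstream of the ribosome itself, 27 of 101 genes for nucleolar ribosome biogenesis rose and 2 fell, with a median log2FC of 0.35. Ddx21, a nucleolar RNA helicase that couples RNA polymerase I to rRNA processing, rose most, with values of 13.09, 13.03 and 13.01 in the 3 control libraries and 14.58, 15.05 and 15.11 in the 3 MYC libraries (log2FC 1.87, SE 0.11, adjusted p = 2.38e-08). The first MYC library lay below the other 2, but far above every control library. Rpf2, which brings the 5S particle into the pre-60S subunit, rose by 1.48, and Mybbp1a, a nucleolar protein that binds MYB, by 1.43. Npm1, the nucleophosmin chaperone of the nucleolus, had values of 15.71, 15.64 and 15.63 in the 3 control libraries and 16.68, 16.76 and 16.72 in the 3 MYC libraries (log2FC 1.06, SE 0.033, adjusted p = 1.50e-10). Some of the best known members did not pass. Nop56, a core protein of box C/D snoRNPs, had a log2FC of 0.57 and stayed just under the fold cutoff, which it passed without the first MYC library (Nop56 log2FC 0.64), without the first control library (0.59) or after quantile normalization (0.77). Fbl, the fibrillarin methyltransferase, had 0.12 with overlapping groups, and Ncl, nucleolin, had -0.21. The 2 members that fell were Rrp1 (-1.08) and Nop14 (-0.71), which act in maturation of the large and the small subunit, and Nop14 no longer passed after quantile normalization.

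The polymerases that transcribe rRNA and tRNA showed the same direction. In the list of RNA polymerase I and III subunits and factors, 10 of 35 rose and none fell, with a median of 0.37. Taf1d and Taf1c, subunits of the selectivity factor of RNA polymerase I, rose by 1.68 and 1.06. Polr1b, a catalytic subunit of RNA polymerase I, had values of 11.99, 11.96 and 11.98 in the 3 control libraries and 12.82, 13.07 and 13.11 in the 3 MYC libraries (log2FC 1.02, SE 0.063, adjusted p = 4.39e-08). The groups were separated by more than any spread within them. Gtf3c6 of TFIIIC rose by 1.16 and Polr3g, a subunit of a form of RNA polymerase III typical of proliferating and undifferentiated cells, by 0.64, while Polr1a, the largest subunit of RNA polymerase I, had a log2FC of 0.35 and did not pass.

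Because MYC and MAX bind the E-box CACGTG, promoter windows of the growth genes were searched for its letters. The windows, from RefSeq on build GRCr8, run from 250 bases before to 50 bases after the listed start, and 9441 genes of the table could be matched to a window. In the nucleolar list 26 of 85 windows (30.6%) held CACGTG, compared with 9.05% of all matched genes and 6.74% of all 24206 windows in the reference. Such a share was not particular to this list: CACGTG was in 4 of 7 windows of the MYC network (57.1%), 4 of 10 of HOX genes (40.0%) and 9 of 26 of germline genes (34.6%). Among lists with more falls than rises, it was in 4 of 14 windows of YAP and TEAD targets (28.6%) and 12 of 49 of lysosomal genes (24.5%). Over all called genes, CACGTG was found in 8.89% of genes that rose, 10.4% of genes that fell and 8.82% of genes that did not pass. The order varied with base composition: when the windows were divided into 4 parts by GC, the shares in the lowest part were 2.58%, 5.47% and 6.38%, and in the next part 10.7%, 10.6% and 7.85%. Among ribosomal proteins, the list with the most rises, 8.06% held it. The related letters CACGCG, counted on both strands, were found in 16.3% of genes that rose, 12.7% of genes that fell and 15.5% of all matched genes, against 9.38% of all windows, and CAGCTG, an E-box of other helix-loop-helix proteins, in 15.4%, 19.3% and 16.9%, against 15.1% of all windows. CACGTG and CAGCTG read the same on both strands. A match is a description of the letters and not a measured binding site.

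The windows below show CACGTG in capitals in 6 growth genes that rose, those with the largest rises among members that hold it before the start, each as 100 bases read 5′ to 3′ on the strand of the gene. They lie at Rpf2 (chr20:45205984-45206083, minus strand), Mybbp1a (chr10:57555255-57555354, plus strand), Gnl3 (chr16:6219783-6219882, minus strand), Eef2 (chr7:9189262-9189361, minus strand), Rpl10a (chr20:6390353-6390452, plus strand) and Lyar (chr14:76802803-76802902, minus strand) on GRCr8. The first base of CACGTG lies 10, 156, 25, 76, 133 and 90 bases before the listed start in that order. Gnl3 is the nucleolar GTPase nucleostemin, Lyar a nucleolar protein of ribosome biogenesis, and Rpl10a a protein of the large subunit.
Rpf2: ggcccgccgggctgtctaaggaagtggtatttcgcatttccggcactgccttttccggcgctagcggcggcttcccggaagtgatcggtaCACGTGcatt
Mybbp1a: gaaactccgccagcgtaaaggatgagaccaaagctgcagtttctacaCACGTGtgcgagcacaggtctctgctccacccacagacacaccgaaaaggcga
Gnl3: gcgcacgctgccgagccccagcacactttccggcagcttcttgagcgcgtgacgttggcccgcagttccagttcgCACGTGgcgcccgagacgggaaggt
Eef2: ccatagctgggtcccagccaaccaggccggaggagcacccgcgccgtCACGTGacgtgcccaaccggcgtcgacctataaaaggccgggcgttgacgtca
Rpl10a: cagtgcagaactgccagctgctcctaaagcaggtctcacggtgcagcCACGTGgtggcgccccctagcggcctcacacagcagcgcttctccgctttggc
Lyar: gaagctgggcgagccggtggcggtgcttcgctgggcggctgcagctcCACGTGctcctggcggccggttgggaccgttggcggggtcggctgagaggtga

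The expression of these 6 genes rose between 0.90 for Lyar and 1.48 for Rpf2. Gnl3 had values of 12.31, 12.23 and 12.17 in the 3 control libraries and 13.38, 13.67 and 13.59 in the 3 MYC libraries, and Rpl10a of 15.21, 15.19 and 15.24 in the 3 control libraries and 16.26, 16.23 and 16.19 in the 3 MYC libraries. In both genes every MYC library was above every control library. Beyond sharing CACGTG within 250 bases of the start, the windows differ in where it lies, from 10 bases before the start in Rpf2 to 156 in Mybbp1a.

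Of 48 translation factors 5 rose (10.4%, against 12.5% of all genes) and 4 fell (8.33%, against 14.3%). The balance depended on scaling, with 8 higher and 2 lower after quantile normalization. The elongation factor Eef2, which moves the ribosome along the message, was among the most highly expressed genes and rose from 18.44 ± 0.054 to 19.46 ± 0.034 (mean ± SD, n = 3), a 2.03-fold change (limma adjusted p = 4.59e-10). Eef1e1, a component of the tRNA synthetase complex, rose by 0.89 and Eif4ebp2, a repressor of the cap-binding factor, by 0.82. The cap-binding factor Eif4e itself had 0.14 with overlapping groups, and the helicase Eif4a1 had 0.36, so neither passed. Eif4g2 (-0.90), which supports cap-independent initiation, Eif3c (-0.64) and Eif5b (-0.59), which joins the subunits, fell. The call of Eif5b was lost after quantile normalization (Eif5b log2FC -0.46) and without the first MYC or the first control library (-0.56 in both cases).

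Among 35 aminoacyl-tRNA synthetases, 8 rose and 1 fell. The 3 largest rises were all of mitochondrial enzymes, Tars2 (0.90), Wars2 (0.85) and Lars2 (0.85). The cytosolic enzymes Lars (0.56, though past the cutoff at 0.74 after quantile normalization), Wars (-0.073) and Gars (-0.33) did not pass, and the cytosolic Cars fell by 0.66, a call that was lost after quantile normalization. Few splicing factors and hnRNPs passed, with 3 of 71 higher and 1 lower, although 12 were higher after quantile normalization. Snrpf (0.80) and Snrpg (0.69), proteins of the Sm ring, and Hnrnpa1 (0.64) rose, and U2af1, which recognizes the 3′ splice site, fell by 1.09. In the nuclear pore and transport list 4 of 46 rose, led by Rcc1, the exchange factor of RAN (1.03), and 1 fell, Xpo6 (-0.59), which did not pass after quantile normalization (Xpo6 log2FC -0.37) nor without the first MYC, the second control or the third control library (-0.57, -0.58 and -0.58).

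Genes of protein folding and degradation gave few calls. No proteasome gene of 40 rose and 4 fell, among them the regulatory particle subunits Psmd13 (-0.90), Psmc2 (-0.68) and Psmc6 (-0.61), but after quantile normalization the numbers were 2 higher and 1 lower. Psmc6 also fell short without the first MYC or the first control library (Psmc6 log2FC -0.58 in both cases). In the list of chaperonins and heat shock proteins 5 of 37 rose, or 9 after quantile normalization, including Cct5 (0.92) and Cct2 (0.65) of the CCT ring that folds actin and tubulin, the HSP90 activator Ahsa1 (0.73) and the small heat shock protein Hspb1 (1.30). Hsp90aa1 (-0.23) and the mitochondrial chaperone Hspd1 (-0.11) did not pass. The 1 member that fell was Cryab, a small heat shock protein of muscle and lens, with values of 12.13, 12.12 and 12.19 in the 3 control libraries and 8.83, 8.83 and 8.82 in the 3 MYC libraries, a 9.97-fold fall.

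**Figure D3:**
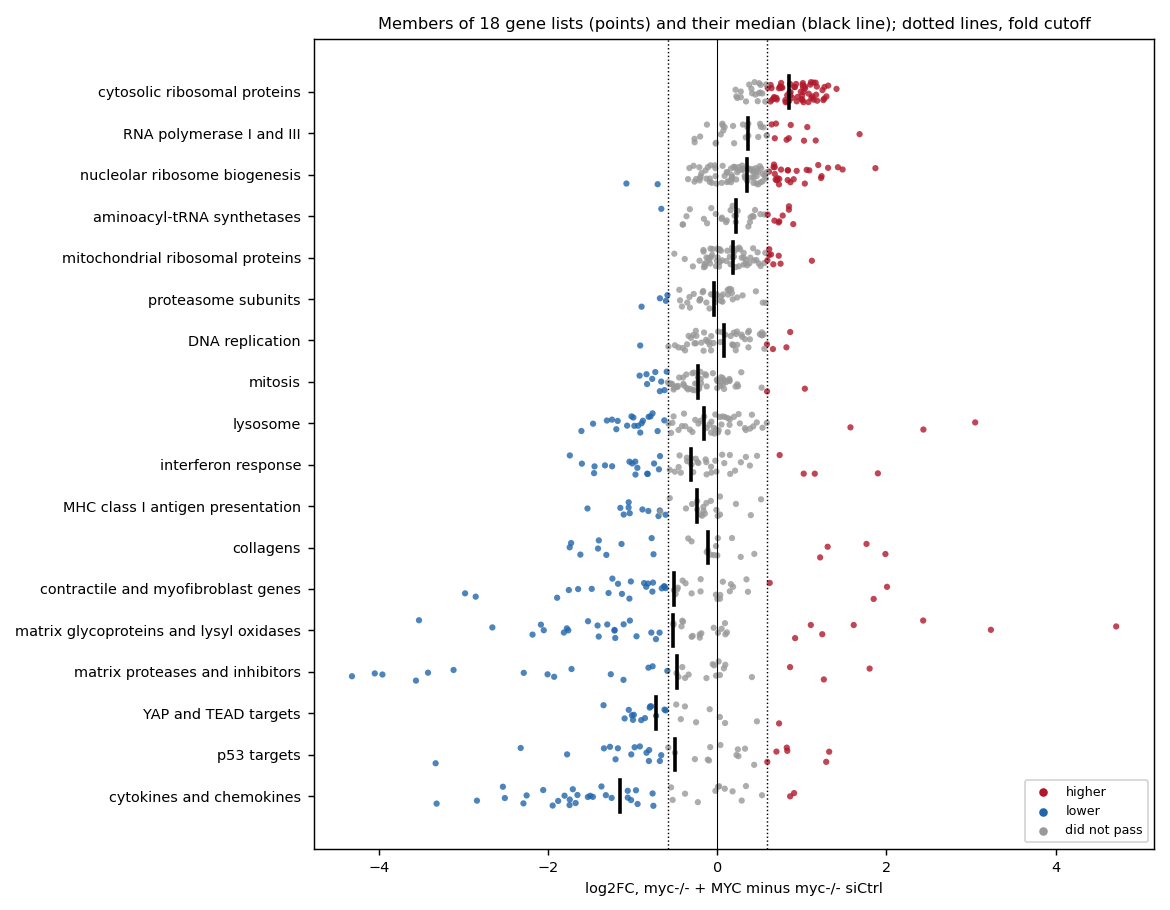
Log2FC of every measured member of 18 lists (points; red rose, blue fell, grey did not pass), with the median of the list as a black bar and dotted lines at the fold cutoff. All 79 ribosomal protein genes lie to the right of 0, while most cytokine, YAP target, contractile and matrix protease genes lie to the left.

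Mitochondrial genes for protein synthesis and import leaned upwards without large changes. Of 71 mitochondrial ribosomal proteins, 8 rose and none fell, with Mrps27 (1.12) and Mrpl12 (0.66) among them and a median of 0.18, and 5 rose after median centring. Of 31 import genes, 3 rose and none fell, or 6 and none after quantile normalization. The 3 were Timm9 (0.95), a chaperone of the intermembrane space, Pam16 (0.72) of the import motor and Timm10b (0.67). Tomm40, the channel of the outer membrane, had 0.28. The share of rises was below the 12.5% of all genes in both lists, in the import list not after quantile normalization, and no member of either list fell against 14.3% of all genes.

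Few subunits of oxidative phosphorylation passed. Of 73, 3 rose and 3 fell, with 4 higher and 2 lower after quantile normalization and 2 higher and 5 lower after median centring, and the median was within 0.1 of 0 under each. Atp5g2, a c-ring subunit of ATP synthase, rose by 0.86, whereas 2 subunits of the NADH-oxidizing module of complex I, Ndufv2 (-1.24) and Ndufv3 (-1.25), fell. The subunits Atp5b (0.20), Ndufs1 (0.14) and Cox5a (0.026) did not pass. In the TCA cycle list 3 of 29 rose, or 6 after quantile normalization. The 3 were the mitochondrial PEP carboxykinase Pck2 (1.45), the NADP-dependent Idh2 (0.81) and the citrate lyase Acly (0.62), the last not without the third MYC library or after median centring (Acly log2FC 0.58 in both cases), and the malic enzyme Me2 fell by 0.89. Citrate synthase, Cs, had 0.26.

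Metabolic genes moved in both directions within most pathways. In glycolysis and glucose uptake 9 of 36 rose and 6 fell. The hexokinase Hk2, which commits glucose to the pathway, had values of 13.82, 13.85 and 13.78 in the 3 control libraries and 12.51, 12.72 and 12.71 in the 3 MYC libraries, and fell (log2FC -1.17, SE 0.053, adjusted p = 3.07e-09). Ldhb (-1.74) and Aldoa (-0.96) fell too, and the lactate dehydrogenase Ldha (-0.36) and the glucose transporter Slc2a1 (-0.23) did not pass. Muscle-type enzymes Pfkm (1.16) and Eno3 (1.02) and the glucose uptake inhibitor Txnip (1.12) rose. Txnip varied among the 3 MYC libraries, with values of 16.16, 15.34 and 15.28.

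Genes of amino acid uptake and use moved in both directions. In the list of glutamine metabolism and amino acid transporters, 11 of 31 rose and 9 fell, or 11 and 5 after quantile normalization. The glutamine transporter Slc1a5 had values of 12.69, 12.64 and 12.61 in the 3 control libraries and 13.87, 13.98 and 13.94 in the 3 MYC libraries, and rose (log2FC 1.28, SE 0.037, adjusted p = 7.33e-11). The asparagine synthetase Asns rose by 0.81. Slc7a5, the large neutral amino acid transporter that exchanges glutamine for leucine, had values of 15.93, 16.002 and 16.01 in the 3 control libraries and 14.61, 14.80 and 14.83 in the 3 MYC libraries, and fell by 1.23. Opposite to it, Slc7a8, another transporter of this kind, rose by 2.39 from a low control mean of 6.17 ± 0.11 (SD, n = 3). Slc38a1 (1.84) rose while Slc38a3 (-2.41), both sodium-coupled glutamine carriers, and the cystine transporter Slc7a11 (-1.84) fell.

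In nucleotide synthesis 16.7% of the purine list and 30.0% of the pyrimidine and deoxynucleotide list passed, against 26.8% of all genes. Cad, the enzyme of the opening steps of pyrimidine synthesis, had values of 14.24, 14.26 and 14.26 in the 3 control libraries and 15.00, 15.14 and 15.22 in the 3 MYC libraries, and every MYC library was above the controls (log2FC 0.87, SE 0.046, adjusted p = 1.26e-08). Impdh2, which commits IMP to guanine nucleotides, rose by 0.77, Adsl by 0.80 and Gart by 0.59, the last not without the second MYC library (Gart log2FC 0.57) or after median centring (0.55), and over the 18 purine genes these 3 rose and none fell, though 1 fell after quantile normalization or median centring. Ppat, which opens purine synthesis, had -0.0067 with overlapping groups. Tyms, the thymidylate synthase, fell by 0.90 and the deoxycytidine kinase Dck by 1.19, while Rrm2 had -0.51 and did not pass. In the pyrimidine and deoxynucleotide list as a whole 2 of 20 rose and 4 fell, or 1 and 4 after median centring.

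In serine and folate metabolism 7 of 25 genes rose and 2 fell, or 8 and 1 after quantile normalization. Psat1, the aminotransferase of serine synthesis, rose by 1.25, and 2 genes of the glycine cleavage system, Gcsh (1.11) and Amt (1.25), rose too, while Phgdh (0.19), Shmt2 (0.57) and Mthfd2 (0.41) did not pass. Shmt2 passed without the first MYC library (Shmt2 log2FC 0.64) and after quantile normalization (0.78). Aldh1l1, the formyltetrahydrofolate dehydrogenase that removes one-carbon units, had values of 12.03, 12.08 and 12.09 in the 3 control libraries and 7.95, 8.03 and 8.02 in the 3 MYC libraries. This was a 16.7-fold fall, among the 15 largest falls of all genes with a mean of at least 5. Of 14 polyamine genes 3 rose, or 5 after quantile normalization, and 1 fell, Azin2 (-0.84), an antizyme inhibitor. The 3 were Sms (1.59), which makes spermine, the acetyltransferase Sat1 (1.58), which starts polyamine breakdown, and the decarboxylase Amd1 (0.97). Odc1, a textbook MYC target that makes putrescine, had 0.45 and did not pass, though it did after quantile normalization (Odc1 log2FC 0.66).

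Lipid genes held some of the largest metabolic rises. The stearoyl-CoA desaturases, which make monounsaturated fatty acids, rose together: Scd2 had values of 12.48, 12.52 and 12.53 in the 3 control libraries and 15.13, 15.29 and 15.22 in the 3 MYC libraries (log2FC 2.71, SE 0.040, adjusted p = 5.92e-13), and Scd1 rose by 3.16 from a control mean of 9.003 ± 0.11 (SD, n = 3). Fatty acid synthase, Fasn, rose by 0.93 and the sterol-responsive factor Srebf1 by 1.35, while Acaca, which makes malonyl-CoA, had 0.55 and passed without the first MYC library (Acaca log2FC 0.602) or after quantile normalization (0.67). Elovl4 (-1.99), Fads3 (-1.41) and Acsl5 (-0.96) fell, so that the list of 32 held 6 rises and 6 falls. In cholesterol synthesis and transport 7 of 31 rose, with Msmo1 at 1.17 and Mvk at 0.96. The 3 members that fell, Abcg1 (-2.64), Abca1 (-0.80) and Npc2 (-0.79), move cholesterol out of cells or out of lysosomes. The squalene epoxidase Sqle had -0.13 and did not pass.

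Genes of iron uptake and storage moved in both directions. The transferrin receptor Tfrc, through which cells take up iron, had values of 12.77, 12.69 and 12.58 in the 3 control libraries and 14.51, 14.83 and 14.87 in the 3 MYC libraries (log2FC 2.05, SE 0.083, adjusted p = 1.25e-09), and the ferritin heavy chain Fth1, which stores it, had values of 18.86, 18.94 and 18.98 in the 3 control libraries and 17.63, 17.50 and 17.52 in the 3 MYC libraries (log2FC -1.38, SE 0.043, adjusted p = 1.60e-10). Tfrc rose 4.15-fold and Fth1 fell 2.60-fold, without overlap in either gene. The ferroportin exporter Slc40a1 rose by 2.35, and the ferrireductases Steap1 (-1.16) and Steap2 (-1.70) and the heme oxygenase Hmox1 (-0.99) fell. Over the 17 members, 3 rose and 5 fell.

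**Figure D4:**
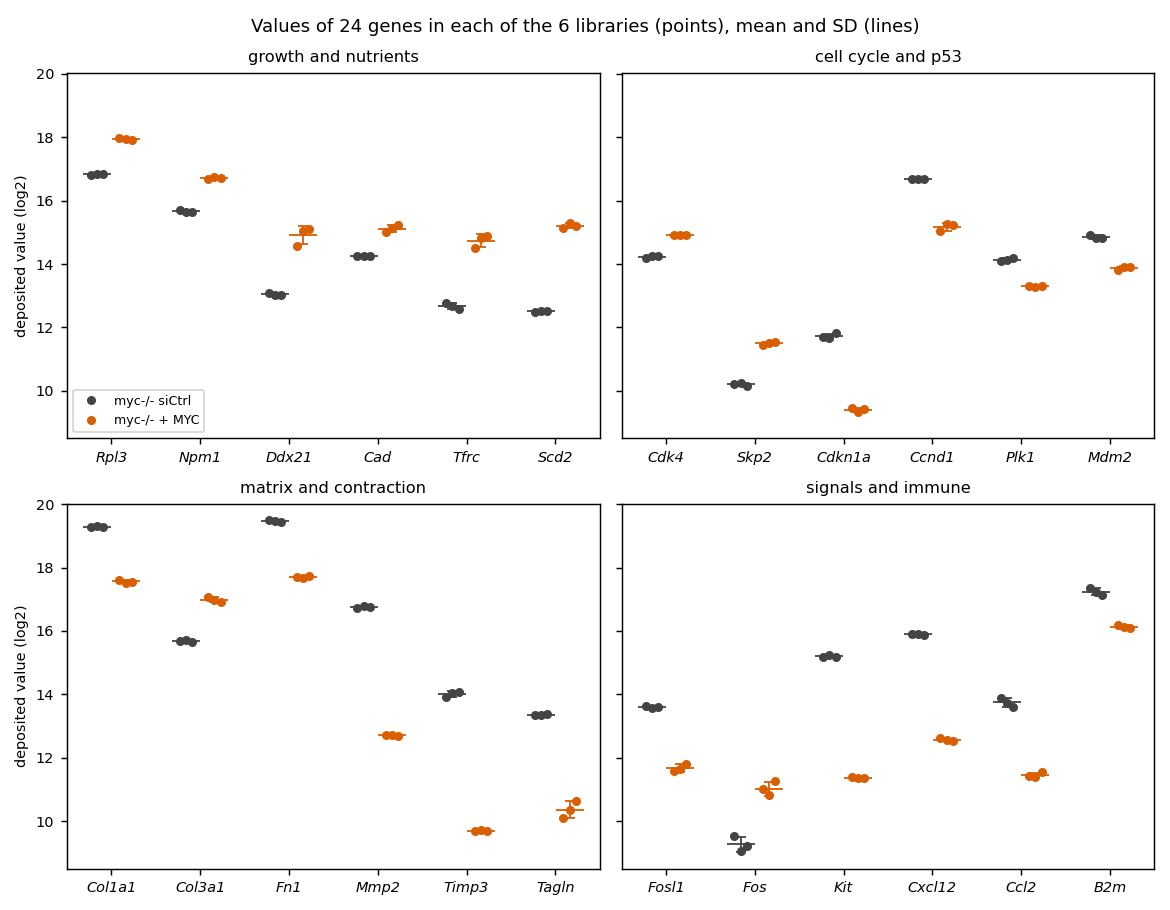
Deposited log2 values of 24 genes in each of the 3 myc-/- siCtrl (grey) and 3 myc-/- + MYC (orange) libraries, with the mean and SD of each group as lines. Genes of growth and nutrient uptake lie higher in the MYC libraries. Col3a1, Fos, Cdk4 and Skp2 rise among genes of the other panels, and the remaining genes lie lower. The groups do not overlap in any of these 24 genes, nor in 78.8% of all genes.

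Among genes of the cell cycle, those of the G1 step held the largest changes. The CDK inhibitor Cdkn1a, or p21, had values of 11.69, 11.67 and 11.81 in the 3 control libraries and 9.45, 9.33 and 9.41 in the 3 MYC libraries, a 5.02-fold fall (log2FC -2.33, SE 0.055, adjusted p = 1.79e-11). Cyclin D1, Ccnd1, had values of 16.70, 16.69 and 16.67 in the 3 control libraries and 15.03, 15.25 and 15.23 in the 3 MYC libraries and fell by 1.52, and Ccnd2 fell by 1.03. In the other direction Cdk4, the partner of D cyclins, had values of 14.19, 14.25 and 14.25 in the 3 control libraries and 14.92, 14.92 and 14.91 in the 3 MYC libraries and rose by 0.69. Skp2, the ubiquitin ligase subunit that targets p27, rose by 1.30, Cdk2 by 0.94 and E2f4, a pocket-protein-bound E2F, by 0.76. In total 6 of 25 members rose and 5 fell.

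Of 54 replication genes 4 rose and 1 fell, with 7 higher and 1 lower after quantile normalization and 3 higher and 2 lower after median centring. The origin factors Orc1 (0.86) and Cdc6 (0.59) and the RPA subunit Rpa3 (0.82) rose, Cdc6 at the fold cutoff and not after median centring (Cdc6 log2FC 0.54), with a pseudocount of 10 (0.58) nor without the first MYC, the second control or the third control library (0.55, 0.57 and 0.58). The clamp Pcna (-0.10) and the helicase subunit Mcm2 (-0.074) did not pass. In mitosis 2 of 65 rose (3.08%, against 12.5% of all genes) and 9 fell (13.8%, against 14.3%), with a median of -0.23. The counts were 2 and 4 after quantile normalization and 1 and 12 after median centring. Plk1, a kinase of mitotic entry, had values of 14.11, 14.11 and 14.19 in the 3 control libraries and 13.32, 13.28 and 13.31 in the 3 MYC libraries (log2FC -0.83, SE 0.032, adjusted p = 7.42e-10), and Mybl2 (-0.92) and Incenp (-0.84) fell. The proliferation marker Mki67 had a log2FC of -0.58, just short of the cutoff, which it passed without the first or second MYC library (Mki67 log2FC -0.59 in both cases), without the third control library (-0.63) or after median centring (-0.63), and Cdk1 had -0.13. Of 30 genes of homologous recombination and Fanconi repair 5 rose and none fell, with 1 lower after median centring. The rises were led by Rad52 (1.24), Fancb (1.13) and the checkpoint kinase Chek2 (0.92), while Brca1 (0.36) did not pass.

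Genes of the extracellular matrix fell in large numbers, some of them from high levels. Over the 5 lists of matrix and adhesion and the list of contractile genes, 24 of 204 members rose (11.8%) and 90 fell (44.1%), against 12.5% and 14.3% of all genes. Fibronectin, Fn1, which links cells to the matrix, had values of 19.49, 19.47 and 19.43 in the 3 control libraries and 17.69, 17.67 and 17.73 in the 3 MYC libraries. Its groups did not overlap and it fell 3.40-fold (log2FC -1.76, SE 0.033, adjusted p = 2.66e-12). Of 44 matrix glycoproteins and lysyl oxidases 21 fell and 7 rose, with a median of -0.52. Thbs2 (-3.53), an antiangiogenic thrombospondin, Tnc (-2.66), tenascin C of wounds and tumor stroma, and Ltbp2 (-2.19) fell most. The collagen crosslinking enzyme Lox fell by 0.73, below the cutoff after quantile normalization, and Sparc had 0.095 with overlapping groups. Opposite to these, Fbn2, the fibrillin of developing tissue, rose from 6.25 ± 0.022 to 10.97 ± 0.044 (mean ± SD, n = 3), Ltbp4 by 3.24 and periostin, Postn, by 2.43.

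Among collagens, some chains rose and others fell. Col1a1, the main chain of fibrillar type I collagen, had values of 19.29, 19.31 and 19.28 in the 3 control libraries and 17.61, 17.52 and 17.55 in the 3 MYC libraries (log2FC -1.73, SE 0.032, adjusted p = 2.96e-12). Col3a1, the type III chain that forms fibrils together with it, had values of 15.69, 15.71 and 15.66 in the 3 control libraries and 17.07, 16.98 and 16.92 in the 3 MYC libraries (log2FC 1.30, SE 0.038, adjusted p = 9.08e-11). Both groups were tight, and the 2 genes moved in opposite directions. Col11a1 (1.99) and Col11a2 (1.76) of type XI collagen rose, Col5a1 (-0.78), Col14a1 (-1.62) and the transmembrane collagen Col17a1 (-1.75) fell, and over the 25 measured chains 4 rose and 9 fell. Among 25 proteoglycans 10 fell and 3 rose. Biglycan, Bgn, had values of 15.83, 15.81 and 15.75 in the 3 control libraries and 12.87, 12.75 and 12.69 in the 3 MYC libraries, an 8.14-fold fall, and fibromodulin, Fmod, fell by 1.77, whereas Hapln1 (1.75), which ties hyaluronan to aggrecan, and the syndecan Sdc2 (1.09) rose. Decorin, Dcn, had -0.33 with overlapping groups.

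Genes for enzymes that cut matrix and their inhibitors held several of the steepest falls of the matrix and adhesion lists. Mmp2, gelatinase A, had values of 16.74, 16.78 and 16.77 in the 3 control libraries and 12.72, 12.71 and 12.70 in the 3 MYC libraries, a 16.6-fold fall (log2FC -4.05, SE 0.026, adjusted p = 6.26e-15). Timp3, a metalloproteinase inhibitor bound to matrix, had values of 13.92, 14.05 and 14.08 in the 3 control libraries and 9.69, 9.71 and 9.68 in the 3 MYC libraries and fell 20.02-fold. For both genes the spread within a group was small against the distance between groups. Serpine2, an inhibitor of thrombin and plasminogen activators, fell by 3.96 and the stromelysin Mmp3 by 3.42, and in all 15 of 32 members fell. The 3 that rose were Adamts12 (1.80), Mmp15 (1.26) and Adamts10 (0.86).

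Adhesion and contraction genes followed. Of 35 integrins, laminins and cadherins 14 fell and 4 rose. The cadherins Cdh13 (-4.17), Cdh11 (-3.60), typical of mesenchymal cells, and Cdh8 (-3.09) fell most, while N-cadherin, Cdh2, had 0.045 and the fibronectin receptor chain Itga5 0.073. Itga10, a collagen receptor of cartilage, rose by 2.95 and Lama4 by 1.68. In the contractile and myofibroblast list 21 of 43 fell and 3 rose, with a median of -0.51. Mylk, the myosin light chain kinase, had values of 12.72, 12.72 and 12.67 in the 3 control libraries and 9.94, 9.80 and 9.79 in the 3 MYC libraries (log2FC -2.86, SE 0.048, adjusted p = 1.41e-12). The smooth muscle actin Acta2 fell by 1.49 to 10.72 ± 0.48 and the transgelin gene Tagln by 2.98 to 10.37 ± 0.27 (mean ± SD, n = 3). Csrp2 (1.85) and Synpo2 (2.01), also of smooth muscle, rose.

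Genes of signals that act on the matrix fell more often than they rose. In the TGF-beta and BMP list 20 of 47 fell and 2 rose. Tgfb2, a TGF-beta ligand, had values of 12.88, 12.80 and 12.75 in the 3 control libraries and 11.82, 11.83 and 11.82 in the 3 MYC libraries and fell by 0.99, and the coreceptor endoglin, Eng, fell by 3.70, the ligand Gdf15 by 3.33 and follistatin, Fst, by 1.83. The 2 members that rose were Bmp4 (1.73), from a control mean of 5.295 ± 0.0064 (SD, n = 3), and the receptor Bmpr1b (1.26). Among targets of YAP and TEAD, which respond to tension and cell contact, 14 of 23 fell and 1 rose, with a median of -0.73. Ctgf, a matricellular YAP target, had values of 13.99, 13.71 and 13.79 in the 3 control libraries and 12.46, 12.79 and 12.95 in the 3 MYC libraries (log2FC -1.10, SE 0.11, adjusted p = 2.29e-06), Cyr61 fell by 0.80, below the cutoff after quantile normalization, and the receptor Axl by 1.35. Tead2 rose by 0.73.

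Immediate early factors moved in both directions, also within the FOS family. Fos, a partner in AP-1, had values of 9.53, 9.05 and 9.21 in the 3 control libraries and 11.01, 10.81 and 11.25 in the 3 MYC libraries (log2FC 1.76, SE 0.13, adjusted p = 1.55e-07), and Fosl1, another AP-1 partner, had values of 13.62, 13.58 and 13.61 in the 3 control libraries and 11.57, 11.64 and 11.80 in the 3 MYC libraries (log2FC -1.94, SE 0.053, adjusted p = 5.04e-11). Fos rose 3.38-fold and Fosl1 fell 3.82-fold, and in neither gene did the groups overlap. Egr1 rose by 1.38 and Klf4 fell by 1.64, and the list of 32 held 5 rises (15.6%, against 12.5% of all genes) and 6 falls (18.8%, against 14.3%).

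Receptors and ligands for growth factors fell more often than they rose, with 21 of 58 lower and 8 higher. Kit, the stem cell factor receptor, had values of 15.18, 15.23 and 15.19 in the 3 control libraries and 11.38, 11.36 and 11.36 in the 3 MYC libraries and fell 14.3-fold (log2FC -3.84, SE 0.029, adjusted p = 8.75e-15). Pdgfrb, the PDGF receptor beta, fell by 1.72, Met by 1.31, Ror2 by 2.72 and Gas6, the ligand of AXL and MERTK, by 2.02. The PDGF receptor alpha, Pdgfra, had 0.25 and did not pass, and Fgfr1 rose by 0.66. In the IGF axis 7 of 16 fell, with Igf2 (-2.66) and the binding proteins Igfbp7 (-2.89), Igfbp1 (-1.93) and Igfbp5 (-0.88) among them, Igfbp6 alone rose (1.21), and the receptor Igf1r had -0.13 with overlapping groups.

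In the Notch pathway 3 of 27 rose (11.1%, against 12.5% of all genes) and 5 fell (18.5%, against 14.3%), shares near those of all genes. The receptor Notch1 (-1.07), the nuclear partner Rbpj (-0.80, not after quantile normalization) and the glycosyltransferase Lfng (-0.86) fell, whereas the target Hey1 (1.52) and the ligand Dll1 (0.89) rose, and Hes1 had -0.46. Guidance molecules, the ephrins, semaphorins, netrins and slits, held 18 falls and 7 rises among 51. Semaphorins and a plexin made up the largest rises, Sema6b (2.64), Plxna2 (1.52) and Sema6c (1.37), with Sema3a at 1.10, and Slit1 (-3.50) and the Eph receptors Epha5 (-2.86), Epha7 (-2.41) and Epha2 (-1.13) fell.

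Cytokines and chemokines had the most negative median of the 63 lists, -1.16, with 28 of 42 members lower and 2 higher. Cxcl12, which recruits cells through CXCR4, had values of 15.90, 15.90 and 15.88 in the 3 control libraries and 12.61, 12.56 and 12.54 in the 3 MYC libraries and fell 10.00-fold (log2FC -3.32, SE 0.029, adjusted p = 1.76e-14). Ccl2, a chemokine for monocytes, had values of 13.89, 13.73 and 13.61 in the 3 control libraries and 11.42, 11.39 and 11.54 in the 3 MYC libraries and fell by 2.29. The receptor Il1rl1 fell by 2.84, Ccl20 by 2.54 and Il6, a mediator of inflammation, by 1.81. Each of these 5 genes was lower in every MYC library than in any control library, as were 40.9% of all genes. The 2 members that rose, Tnfsf10 (0.91) and Il15 (0.86), had control means of 5.33 ± 0.043 and 4.88 ± 0.0024 (SD, n = 3), within the range of the lowest of the 4 parts of genes by level.

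Interferon response genes were lower on balance, with 16 of 50 falling and 4 rising. The factor Irf7 had values of 13.55, 13.48 and 13.42 in the 3 control libraries and 11.94, 11.82 and 11.87 in the 3 MYC libraries (log2FC -1.60, SE 0.043, adjusted p = 4.92e-11), and Isg15 fell by 1.25, Rsad2 by 1.75 and Gbp4 by 1.46. Mx1 had 0.15 with overlapping groups, and Ifitm1 (1.15), Irf3 (1.02) and Cmpk2 (1.90) rose. For presentation by MHC class I, 11 of 31 genes fell and none rose. The light chain B2m had values of 17.35, 17.23 and 17.14 in the 3 control libraries and 16.19, 16.13 and 16.08 in the 3 MYC libraries and fell by 1.11, the peptide transporter Tap1 by 0.89 and the class I genes RT1-CE1 and RT1-CE3 by 1.54 and 1.15. Class I genes of the rat are near-identical copies, so that the values of the RT1 genes are uncertain, and RT1-CE3 did not pass without the first or the third control library (RT1-CE3 log2FC -1.04 and -0.88) or without the mean-variance trend.

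Among targets of p53, 15 of 33 fell and 6 rose, with a median of -0.502. Besides Cdkn1a, cyclin G1, Ccng1, fell by 1.78 and Mdm2, the ligase that degrades p53, fell too, with values of 14.93, 14.81 and 14.81 in the 3 control libraries and 13.80, 13.90 and 13.91 in the 3 MYC libraries (log2FC -0.98, SE 0.042, adjusted p = 1.91e-09). The death receptor Fas fell by 1.34 and Tp53inp1 by 0.92. The largest rises were those of Sesn1 (1.32), which restrains mTORC1, Tnfrsf10b (1.29) and the repair factor Ddb2 (0.83), and Bax, the effector of mitochondrial apoptosis, had -0.11. Of 32 genes of the BCL2 family and apoptosis 6 fell (18.8%, against 14.3% of all genes) and none rose. The survival genes Bcl2l1 (-1.40) and Birc3 (-1.15) were among those that fell, and Bcl2 had 0.080 with overlapping groups.

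Stress responses that depend on transcription factors were lower at their targets more often than higher. In the ATF4 and unfolded protein list 8 of 33 fell, Cebpb (-1.85), Chac1 (-1.56), Trib3 (-1.33) and Ddit3 (-0.61) among them. The 3 that rose were Ddit4 (1.03), Asns (0.81) and Herpud1 (0.80). Atf4 (0.32) and the ER chaperone Hspa5 (-0.079) did not pass. In the hypoxia list 11 of 29 fell, with Angptl4 (-1.97), Adm (-1.85) and Car12 (-1.71) leading, and 5 rose. Ndrg1, a stress gene that MYC proteins are known to repress, had values of 10.99, 11.03 and 11.00 in the 3 control libraries and 14.07, 14.05 and 14.04 in the 3 MYC libraries, and rose 8.27-fold (log2FC 3.05, SE 0.031, adjusted p = 5.25e-14). Hif1a (-0.62) and Vegfa (-0.63) fell by little more than the cutoff and did not pass after quantile normalization. Among NRF2 and glutathione genes 11 of 44 fell and 6 rose. The superoxide dismutases Sod2 (-2.005), with values of 16.21, 16.25 and 16.23 in the 3 control libraries and 14.24, 14.21 and 14.23 in the 3 MYC libraries, and Sod3 (-1.82) fell, and the quinone reductase Nqo1 (1.29) and the transferase Gsta4 (1.70) rose.

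Lysosomal genes fell in 19 of 65 cases and rose in 3, or in 17 and 5 after quantile normalization. Cathepsin B, Ctsb, one of the most highly expressed genes, had values of 18.15, 18.14 and 18.11 in the 3 control libraries and 16.71, 16.65 and 16.63 in the 3 MYC libraries (log2FC -1.47, SE 0.031, adjusted p = 7.16e-12), the membrane protein Lamp1 fell by 1.31, the proton pump subunit Atp6v1d by 1.61 and Tfeb, the factor that drives lysosomal genes, by 1.07. Cathepsin C, Ctsc (3.05), cathepsin S, Ctss (1.57), and the sorting receptor Sort1 (2.44) rose. In autophagy 6 of 38 fell (15.8%, against 14.3% of all genes), including the receptors Optn (-1.71) and Sqstm1 (-0.86). A rise was called in 2 (5.26%, against 12.5%), with Gabarapl1 at 0.75. After median centring 8 fell and 1 rose.

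In the MYC network 2 of 9 genes rose and 1 fell. Mxd4, a MAX partner that opposes MYC, had values of 11.12, 11.19 and 11.25 in the 3 control libraries and 12.44, 12.29 and 12.31 in the 3 MYC libraries and rose (log2FC 1.16, SE 0.049, adjusted p = 1.75e-09), as did Mxd1 (0.94), while Mxd3 fell by 0.80. Max had 0.503, with the MYC libraries all above the controls but short of the fold cutoff, and Mnt had 0.38. Among other transcription factors, 14 of 52 mesenchymal factors rose and 12 fell. Meox2, a homeobox factor of mesoderm, had values of 7.18, 6.997 and 7.20 in the 3 control libraries and 11.97, 12.10 and 12.03 in the 3 MYC libraries, and was among the 15 largest rises of all genes. Foxc1 (1.76), Klf5 (1.86) and Twist1 (0.77) rose and Twist2 (-1.39), Runx1 (-1.501), Msx1 (-2.05) and Prrx1 (-0.81) fell, so that the twist paralogs moved apart. Of 21 HOX genes 8 rose, Hoxb8 by 2.5003 and Hoxb5 by 1.22, and 1, Hoxb13, fell by 1.11. In the circadian clock list 2 of 18 rose (11.1%, against 12.5% of all genes), Per1 (1.14) and Arntl (0.75). A further 2 fell (11.1%, against 14.3%), Nfil3 (-1.52) and Nr1d2 (-0.69).

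Markers of the cell type were checked in the same libraries. Of 15 fibroblast markers 5 fell and 1 rose, and the intermediate filament vimentin, Vim, had means of 18.34 ± 0.039 in control and 18.47 ± 0.083 in MYC cells (SD, n = 3). Thy1 fell by 1.15. Markers of other cells ranged from near 0 to high. Several defining ones were low in both groups: Epcam of epithelium had means of 1.25 ± 0.026 and 1.24 ± 0.026 (SD, n = 3), Sox10 of glia 0.65 ± 0.013 and 0.64 ± 0.013, the neuronal tubulin Tubb3 0.97 ± 0.026 and 0.96 ± 0.013, and Pparg of fat cells 3.78 ± 0.013 and 3.72 ± 0.022. Cdh1 of epithelium, at 4.25 ± 0.023 and 4.25 ± 0.049, and Ptprc of leukocytes, at 4.62 ± 0.025 and 4.47 ± 0.015, did not pass either. Other members of these lists were high in 1 or both groups, and some changed greatly. In the epithelial list 4 of 16 rose and 1 fell. Tspan8, a tetraspanin, rose by 4.92 from 6.64 ± 0.18 to 11.56 ± 0.047 (mean ± SD, n = 3), Krt8 rose by 1.70, and Grhl2 rose by 0.65 from a control mean of 12.35. In the endothelial list 1 of 10 rose and 2 fell, among them Vwf by 1.89, and 1 fell after quantile normalization. In the leukocyte list none of 16 rose and 3 fell (18.8%, against 14.3% of all genes). These were Cd14, by 0.99 from a control mean of 11.33, Cd3e by 2.09 and Cd74 by 1.21. The neural list had 2 rises and 5 falls among 18. The neuropeptide gene Nts rose by 5.32, the largest rise of all genes, from 7.44 ± 0.088 to 12.76 ± 0.053 (mean ± SD, n = 3). Pvalb, the calcium-binding parvalbumin, fell by 4.59 from 14.16 ± 0.0055 to 9.58 ± 0.027, Mbp fell by 2.78 and the RNA-binding Elavl4 by 2.13 from a control mean of 12.73. The part of other cell types in the results was not tested. The skeletal muscle list had 1 rise and 5 falls among 19, with Myh1 (-2.84) and Myh3 (-2.83) falling, and the adipocyte list 2 and 3 among 10. In libraries of bulk RNA, fewer cells that express a gene and less RNA of it per cell cannot be told apart.

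Among all genes with a mean of at least 5, several of the largest changes belonged to no list of a single programme. Smpdl3a, a phosphodiesterase related to acid sphingomyelinase, had values of 6.37, 6.31 and 6.27 in the 3 control libraries and 11.12, 11.08 and 11.01 in the 3 MYC libraries, and Dpyd, which degrades pyrimidines, of 6.52, 6.45 and 6.42 in the 3 control libraries and 11.24, 11.19 and 11.06 in the 3 MYC libraries. For both, every MYC library stood more than 4 units above every control library. The alcohol dehydrogenase Adh1 (4.44), the thyroid hormone binding protein Crym (4.29), the mitochondrial carrier Ucp2 (4.22) and the blood and vessel factor Tal1 (4.02) also rose. Among the falls, Pde9a, which hydrolyses cyclic GMP, had values of 12.48, 12.52 and 12.48 in the 3 control libraries and 8.32, 8.06 and 8.20 in the 3 MYC libraries, and Angptl2, a secreted angiopoietin-like protein, of 15.68, 15.82 and 15.81 in the 3 control libraries and 11.67, 11.65 and 11.66 in the 3 MYC libraries. The death receptor Tnfrsf21 (-4.16), the calcium channel subunit Cacna1s (-4.54), Rbp2 (-4.16) and Adgrf5 (-4.01) fell with them.

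In some stretches of the chromosomes, genes that changed in 1 direction lay side by side. Genes with a mean of at least 5 were placed in order with a RefSeq table of another assembly, GRCr8, used for order alone, and the median log2FC was taken over each run of 25 neighbouring genes, a description that was added after runs of called neighbours had been seen. Of 9525 such windows over 10030 genes, a share of 90% had medians between -0.497 and 0.39. The highest window, from Smpdl3a to Cep57l1, had a median of 1.05, all 25 genes were above 0 and 22 rose. It holds Rpf2, Gtf3c6, Amd1 and Lama4, which are counted above in the lists of ribosome biogenesis, RNA polymerase III, polyamines and laminins, and the longest run of neighbours called in 1 direction, 10 genes from Ddo to Sesn1, starts in it. The next highest window that shares no gene with it, from Rab9a to Sms, had a median of 0.83. Here 25 of 25 genes were above 0 and 18 rose, Fancb and Sms among them. Genes on both sides of the window from Smpdl3a to Cep57l1 rose too, among them Ddx21 and Eif4ebp2 before it. Others there did not pass or fell.

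The lowest window, from Cmtr1 to Aire, had a median of -1.09, with 17 of 25 genes lower and 2 higher. It holds Pde9a, Abcg1, Ndufv3, U2af1 and Rrp1, which fell, and Pwp2, a member of the ribosome biogenesis list, which rose by 0.68. A window from D2hgdh to Tgif1 had a median of -0.96, with 17 lower genes that include Ndufv2 and Lama1, and a window from Btc to Hopx had -0.84, with Cxcl1 (-2.06), Cxcl2 (-1.88), Dck, Epha5 and Igfbp7 among its 16 lower genes. These windows were picked for their extreme medians, and the lowest also holds 5 genes above 0. The members named here are counted in their lists all the same. The part of gene position in the list counts was not tested.

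**Figure D5:**
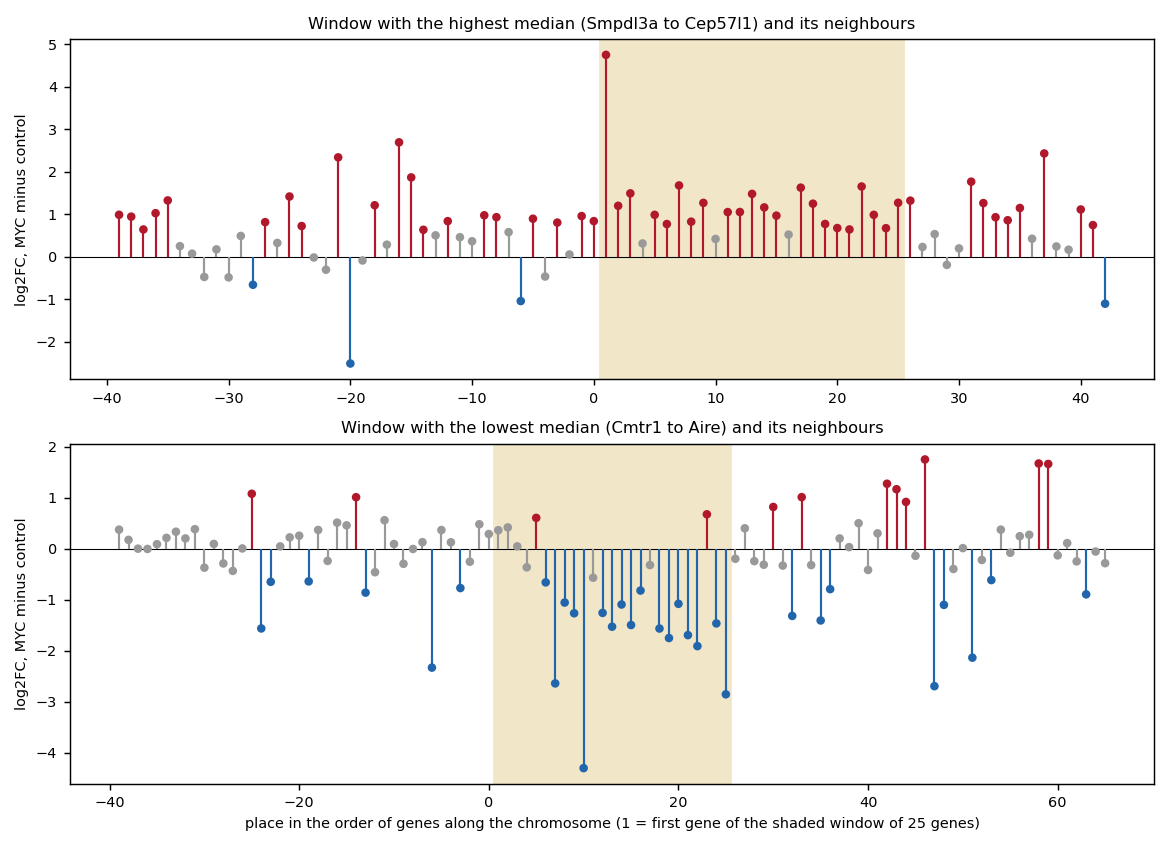
Log2FC of genes (vertical axis) in their order along the chromosome (horizontal axis, place 1 being the first gene of the shaded window of 25 genes), for the window with the highest median (upper panel) and the lowest (lower panel). Red genes rose, blue genes fell and grey genes did not pass: 22 of 25 genes rose in the upper window and 17 of 25 fell in the lower.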

How the data were processed

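Poly(A) RNA of the cultures was sequenced. Reads were checked with the NGS-QC-Toolkit by the authors, who aligned to rn6 using HISAT2 2.1.0, dropped genes under 10 reads in total, normalized the others with DESeq2 and deposited log2 values. The counter and annotation are not given in the sources used here. The transformation behind the log2 values is unknown, and no counts or depths could be taken from them. Columns were matched to samples by the labels. Value columns without a sample numbered 0, and the 12 libraries normalized apart were not used.

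MYC was tested against control over all 13188 genes with limma 3.58.1 (R 4.3.3), using lmFit, then eBayes with trend. The study's methods give at least 3 runs of every experiment, each with 3 technical replicates. Which of these the 3 libraries of a group were is not given in the sources used here, so p-values measure the spread between these libraries. Plots used matplotlib 3.10.9 (Python 3.11.15).

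The libraries and lists were chosen with earlier results of these data known, and Ebp and Grb7 were taken out of lists as wrong members after the table was at hand but without their values being looked at. Named genes are fixed anchors of each list, up to 3 called members with the largest rise and 3 with the largest fall in each list, the 15 largest rises and falls without overlap among genes averaging at least 5, and Myc, together with growth genes whose promoters are printed. Pwp2, Cxcl1, Cxcl2, Ddx3y, Grhl2 and members of runs of neighbours were named after their values were seen. Some genes that the rule picks are not reported here. Of the symbols, 12169 matched a symbol and 809 a synonym in RefSeq on GRCr8, used for promoters and gene order.

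Alternatives were an FDR below 0.05 without a fold cutoff, no trend, quantile normalization, median centring, a mean of at least 5, a pseudocount of 10 off the log scale, a block for replicate numbers and the omission of each library in turn.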

Additional observations from a re-analysis of the deposited data

How the results depend on the processing

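The total of 3538 called genes moved by over 1.5 times only without the fold cutoff: with an FDR below 0.05 alone 10051 genes differed, 4914 higher and 5137 lower. The balance of directions turned with scaling, from 1653 higher and 1885 lower to 1799 and 1684 after quantile normalization. The counts were 1492 and 2046 after median centring, 1648 and 1885 among genes with a mean of at least 5, 1597 and 1841 with a pseudocount of 10, and 1652 and 1884 without the trend. Leaving out each library in turn gave 3520 to 3567 called genes, 1630 to 1678 higher and 1874 to 1895 lower. The median log2FC of all genes stayed between -0.0464 and 0.0106 under these settings.

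Deviations of same-numbered libraries from their group means correlated at -0.073, -0.0214 and 0.0082. These correlations cannot show whether the cultures were handled as pairs. With the replicate block 3539 genes were called, 1653 higher and 1886 lower, and all 3538 calls without it were shared. No call was in the opposite direction under any setting. Of 2457 list counts checked, 206 moved by over 1.5 times. The median of the glycolysis and glucose uptake list turned from -0.0774 to 0.13 after quantile normalization, and the cause was not tested. Of 434 named genes, 15 lost and 6 gained a call after quantile normalization, 8 lost and 1 gained one after median centring, and leaving out 1 library lost 2 to 5 calls and gained 0 to 5, most without MYC replicate 1 (5 and 5). Medians of the nuclear pore, proteasome, oxidative phosphorylation, TCA, purine, pyrimidine, fatty acid, G1, mesenchymal factor, germline and epithelial lists, within 0.1 of 0 as reported, also changed sign with scaling. After quantile normalization those of the nuclear pore, proteasome and TCA lists were 0.14, 0.12 and 0.16. The read depth is unknown, so that no limit for genes listed near 0 can be given.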

Other observations

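Germline genes were measured in these fibroblasts and moved in both directions. Of 35 genes of the germline and DNA methylation list 7 rose and 7 fell. Tdrd1 and Rnf17, tudor proteins of the germline piRNA machinery, rose by 4.92 and 4.89 from control means of 6.88 ± 0.093 and 6.66 ± 0.075 (SD, n = 3). Sycp1 of the synaptonemal complex rose by 2.73. The transcription factors of germ cells Sohlh1 and Sohlh2 had high values in control cells and fell. Sohlh1 had values of 15.86, 15.94 and 15.96 in the 3 control libraries and 13.64, 13.69 and 13.68 in the 3 MYC libraries, and Sohlh2 of 13.38, 13.38 and 13.39 in the 3 control libraries and 9.50, 9.52 and 9.51 in the 3 MYC libraries. The maintenance methyltransferase Dnmt1 had a log2FC of 0.042 with overlapping groups. Among 19 imprinted genes 6 fell, with Ndn at -4.67, Zim1 at -2.72 and Igf2 at -2.66, 1 rose, Impact (0.64), and Peg3 had 0.15. All calls are from limma with adjustment over all 13188 genes.

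Of 3 genes listed as Y-linked 2 rose. Eif2s3y, the Y copy of a translation initiation factor subunit, had values of 5.98, 5.99 and 5.94 in the 3 control libraries and 10.48, 10.48 and 10.45 in the 3 MYC libraries (log2FC 4.50, SE 0.056, adjusted p = 1.81e-13). Ddx3, whose reads can be shared with copies on other chromosomes and whose value is uncertain, rose by 5.01, and Ddx3y had -0.0083 at means of 1.21 ± 0.027 and 1.197 ± 0.012 (SD, n = 3). Both lines are labelled HO15.19, and the part of differences between the lines in these values was not tested.

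Short runs of neighbours outside the windows described in the report also moved together. The phospholipase genes Pla2g2c (-0.93), Pla2g2f (-0.70), Pla2g2d (-3.28), Pla2g5 (-3.37) and Pla2g2a (-2.97), a family that lies in 1 cluster, all fell, and so did the run Prelp (-0.90), Fmod, Btg2 (-1.02), Chit1 (-0.93) and Chi3l1 (-2.75). In the other direction, Zcchc7 (0.80), Grhpr (1.73), Zbtb5 (0.60), the RNA polymerase I subunit Polr1e (0.84) and Trmt10b (0.65) rose. These genes were chosen after their values were seen, as members of the 18 runs of at least 5 called neighbours.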
